A study of Drosophila melanogaster with 2 samples.

Results

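Intergenic Mad peaks are the places in Drosophila melanogaster embryos where a Mad fusion protein was found on DNA outside every annotated gene. A peak of the authors' list thresholded on reproducibility was taken as intergenic when its summit, the point of highest signal, lay in no annotated gene span and more than 500 bp from any annotated transcription start site (TSS). Of the 3590 peaks in that list, 359 met this rule, or 10% (95% Wilson interval 9.06 to 11.0). The intergenic DNA that the rule leaves made up 27.2% of the chromosome arms, so the peaks were at 0.367 times their share by length. Of the other thresholded peaks, 2181 lay within 500 bp of a TSS, 962 in introns and 88 in exons.

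The embryos carried a transgene for Mad with GFP fused to its C-terminus, in 1 transgenic line, and anti-GFP antibody was used to pull down its chromatin. Each of the 2 biological replicates pooled whole embryos aged 0 to 24 h, male and female together, and the chromatin was sheared to fragments of 200 to 800 bp. The series has 1 group and no second condition, and the labels do not say whether the embryos also had untagged Mad. Embryos of all stages and tissues were sampled together, so a peak cannot be given to a cell type. Fewer cells with a bound site and less binding per cell cannot be told apart in such samples.

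Mad is the Smad transcription factor that is phosphorylated by the receptors of the bone morphogenetic protein (BMP) Dpp and then moves into the nucleus with its partner Medea. It binds GC-rich sites at enhancers, stretches of regulatory DNA that may lie far from the gene they act on, and patterns the dorsal side of the embryo, the trachea and the heart. Brinker represses many of the same genes by binding a site that resembles the GC-rich Mad site. CTCF and Su(Hw) are insulator proteins, which bind between regulatory domains. DREF and M1BP bind near the promoters of broadly expressed genes.

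The sequence most raised at the summits among known motifs was the CTCF core, written AGNNGGCGC and sought on both strands. The 4 sequences that follow are shown because they hold it within 50 bp of the summit and were among the 5 strongest such peaks off the arm whose sequence is not shown. Each is the 101 bp around the summit on the plus strand of dm6 (RefSeq release 6 genome), with the core in capitals. The peak between jp and lncRNA:CR44149 (chr2L:9567455-9567555) had a signal of 326, and the peak between Sid and snu (chr3R:28672340-28672440) had 198. The peak between Sox21a and Sox21b (chr3L:14111587-14111687), neighbouring genes for Sox-family transcription factors, had 143. The peak between NLaz and CG14346 (chr2L:1362393-1362493) had 121. The Sid and NLaz peaks hold 2 cores each.
jp peak: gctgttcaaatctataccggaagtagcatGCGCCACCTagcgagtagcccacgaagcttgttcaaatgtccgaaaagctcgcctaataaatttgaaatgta
Sid peak: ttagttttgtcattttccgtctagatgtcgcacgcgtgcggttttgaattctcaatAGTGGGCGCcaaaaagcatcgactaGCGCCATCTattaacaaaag
Sox21a peak: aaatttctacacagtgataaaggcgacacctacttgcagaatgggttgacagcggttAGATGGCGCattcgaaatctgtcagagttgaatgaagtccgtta
NLaz peak: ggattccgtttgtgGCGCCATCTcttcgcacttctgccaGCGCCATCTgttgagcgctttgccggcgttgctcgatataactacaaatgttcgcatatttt

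The second feature of the summits was a short word with no factor assigned here, CAGTGTA or CAGTGCA, called the CAGTG word below. It was found by counting all hexamers, so it was chosen after the values were seen. The peak between lncRNA:CR45039 and E(spl)malpha-BFM, a gene of the Notch-responsive E(spl) complex (chr3R:26009061-26009161), had a signal of 210 and was the strongest with the word within 50 bp of the summit, off the arm not shown. The peak between lncRNA:CR44189 and CG31797 (chr2L:19226414-19226514, signal 138) held the other form of the word. The peaks next to dally (chr3L:8824003-8824103, signal 84.3) and Dad (chr3R:17052858-17052958, signal 74.3), genes of the BMP pathway, held it as well, in the dally peak beside a run of A. The word is in capitals in each sequence.
E(spl)malpha-BFM peak: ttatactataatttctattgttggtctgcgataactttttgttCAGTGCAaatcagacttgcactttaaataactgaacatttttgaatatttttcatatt
CR44189 peak: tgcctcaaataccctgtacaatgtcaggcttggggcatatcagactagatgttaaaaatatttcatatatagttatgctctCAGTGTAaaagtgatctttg
dally peak: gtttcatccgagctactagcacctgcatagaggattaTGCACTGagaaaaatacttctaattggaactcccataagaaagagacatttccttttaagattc
Dad peak: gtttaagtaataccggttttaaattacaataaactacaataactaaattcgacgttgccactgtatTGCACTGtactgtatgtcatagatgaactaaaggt

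Another pair of sequences shows peaks without the core or the word in the stretch shown. The peak between the pair-rule genes slp1 and slp2 (chr2L:3832466-3832566, signal 348) was the only intergenic peak with the M1BP word GGTCACACT, and it holds the word 2 times, in capitals. It also had a CAGTG word within 100 bp of the summit, outside the sequence shown, and counts among the peaks with that word below. The peak in a gap with lncRNA:CR45641 and lncRNA:CR45643 at its ends (chr3R:16222445-16222545, signal 564) was the strongest whose sequence is shown, and holds neither the CTCF core nor the CAGTG word in this window.
slp1 and slp2 peak: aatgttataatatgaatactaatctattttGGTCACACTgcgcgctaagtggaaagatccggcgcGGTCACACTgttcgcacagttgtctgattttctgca
lncRNA:CR45643 peak: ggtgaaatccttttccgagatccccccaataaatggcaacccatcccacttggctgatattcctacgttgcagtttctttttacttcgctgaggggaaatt

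The CTCF core lay within 100 bp of the summit, on either side, at 28 of the 359 intergenic peaks, or 7.80% (5.45 to 11.0). Among all thresholded peaks the share was 3.82%, at promoters 3.12% (2.47 to 3.93) and in introns 3.12% (2.19 to 4.42). Of the 137 thresholded peaks with the core, 28 were intergenic, 68 at promoters and 30 in introns. The rest were among the 88 exon peaks, a higher share than at intergenic peaks, so the core was not particular to intergenic peaks. Equally wide windows around the points 600 bp away on either side of the same peaks held it 4 times on the left and 6 times on the right, a mean share of 1.39%, so the summits had it 5.6 times as often. Promoter peaks had it 1.03 times as often as their own flanks and intron peaks 2.07 times. The 28 peaks held 38 matches, with 2 or more in 9 peaks. Of these matches 17 read AGATGGCGC and 11 AGGTGGCGC. Their density was 0.89 matches per kb in the 50 bp just left of the summit, against 0 to 0.22 in every bin more than 100 bp away.

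Both replicates gave a like share for the core. The 3590 strongest peaks of replicate 1's own list held 343 intergenic peaks, 7.29% of them with the core, and those of replicate 2 held 368, 7.88% with it. Pooled intergenic peaks below the authors' threshold had it in 2.80% of 3970. Signal was alike with and without it: the median was 107 with the core and 99.4 without. The core was at 9 of the 69 intergenic peaks of arm 3R and at 3 of the 98 of arm 3L.

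The CAGTG word was at 96 of the 359 summits, or 26.7% (22.4 to 31.5). It was at 13.4% of all thresholded peaks, at 8.80% of those at promoters (7.69 to 10.1) and at 19.1% of those in introns (16.8 to 21.7). The flanks of the intergenic peaks held it in 5.71% of windows, so the summits had it 4.68 times as often. Intron peaks had the word 3.54 times as often as their own flanks and promoter peaks 2.03 times, so its excess was not particular to intergenic peaks. Each form of the word contributed: CAGTGTA was at 14.2% of summits and 1.95% of flanks, and CAGTGCA at 13.9% and 3.90%. The density reached 2.12 matches per kb within 50 bp right of the summit and was 0.06 to 0.56 in every bin more than 150 bp left or right of it.

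A run of T stood before the word on its own strand. Of 110 matches near the summits, 77.3% had T at the position 7 bases before the word, 76.4% at 6 bases and 75.5% at 5 bases before. The 42 matches in the flanks had T there in 59.5%, 71.4% and 61.9%, so matches away from the summits showed the run too. Summits with the word and a TTT at those positions numbered 59, or 16.4% (13.0 to 20.6), against 2.37% of flanks, 3.12% of promoter peaks and 11.1% of intron peaks.

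The word was at 22.7% of replicate 1's own intergenic peaks and 27.4% of replicate 2's. It was at 12.6% of the intergenic peaks below the threshold. Peaks with and without it had median signals of 98.4 and 102. It was at 22.9% of the 157 peaks within 2000 bp of a TSS and 29.7% of the 202 farther away, with intervals that overlapped (17.0 to 30.1 and 23.8 to 36.3). Across the arms with 34 or more intergenic peaks the share ran from 21.4% to 29.4%. The core and the word were at the same peak 6 times, and 118 of the 359 peaks (32.9%) had at least one of them.

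**Figure D1:**
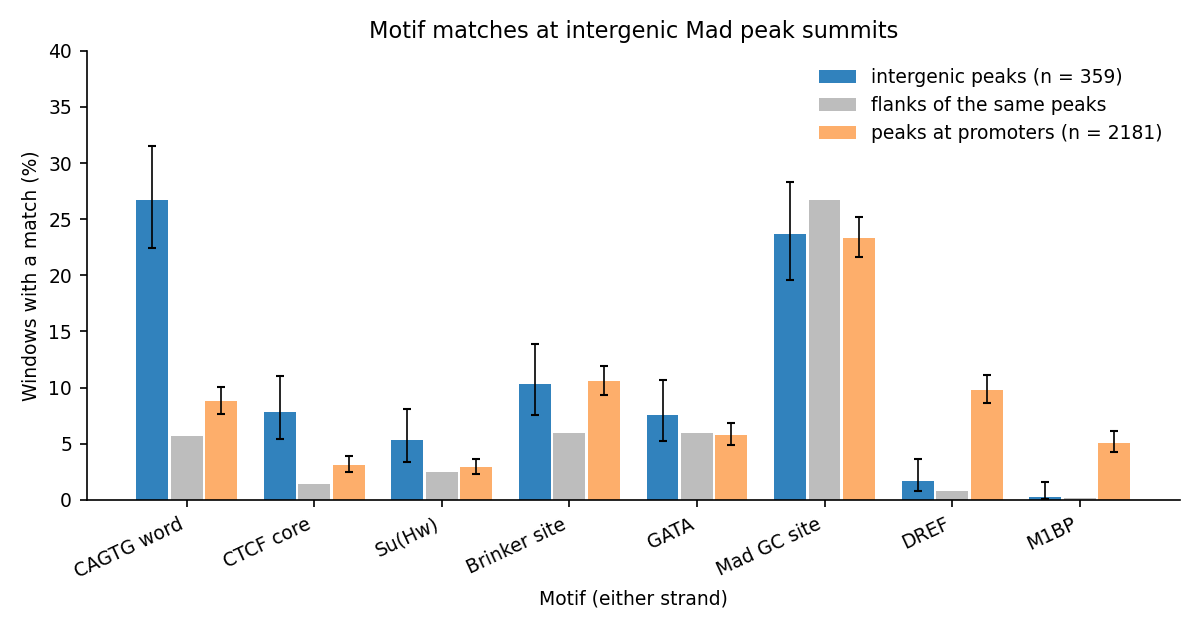
Share of windows, 100 bp to each side of a point, with a match to each motif on either strand, at intergenic peak summits (blue), in the flanks 600 bp away (grey, mean of both) and at promoter peaks (orange); bars on the columns are 95% Wilson intervals. The CAGTG word (26.7% against 5.71%) and the CTCF core (7.80% against 1.39%) were higher at the summits than in the flanks, and DREF and M1BP were higher at promoters.

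The sites of the BMP pathway itself were at a share close to or below that of the flanks. The GC-rich Mad site (GACGNC or GGCGNC) was at 85 intergenic summits, or 23.7% (19.6 to 28.3), and at 26.7% of their flanks, 0.885 times the flank share; in windows of 200 bp to each side it was at 1.06 times that share. The share among all thresholded peaks was 23.1%. Promoter peaks had the site 0.613 times as often as their own flanks and intron peaks 0.791 times, so a share below the flanks was not particular to intergenic peaks. Intergenic peaks below the threshold had it in 30.1% (28.7 to 31.5). In the 50 bp left of the summits of the 359 peaks the site fell to its lowest density within 1000 bp, 1.17 matches per kb. A longer Mad site (GCCGNCG) was at 14 summits (3.90%, flanks 6.69%) and the Smad box CAGACA at 25 (6.96%, flanks 9.61%). Neither the paired Smad box GTCTAGAC nor the bipartite silencer bound by Mad, Medea and Schnurri was at any of the 359, where 3 counts of 359 would be a share of 0.836% and the Wilson interval reaches 1.06%.

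The Brinker site, TGGCGCC with T also allowed in place of either of its last C bases, was at 37 summits, or 10.3% (7.57 to 13.9), against 5.99% of flanks and 9.86% of all thresholded peaks. Its letters overlap the end of the CTCF core. Without matches that overlap a core it was at 25 summits, or 6.96% (4.76 to 10.1), against 5.57% of flanks. With overlaps kept, the Brinker site was 3.25 times as frequent as in the flanks at the 88 intergenic peaks among the 1000 strongest thresholded peaks. In the whole thresholded list promoter peaks had it 1.06 times as often as their own flanks and intron peaks 0.947 times. Of the 85 peaks with a GC-rich Mad site, 8 had it only where it overlapped a core.

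Su(Hw)'s word TGCATAC was at 19 summits, or 5.29% (3.41 to 8.12), against 2.51% of flanks and 3.62% of all thresholded peaks. The GATA site (AGATAAG or TGATAAG) was at 27, or 7.52%, against 5.99% of flanks and 6.63% of all thresholded peaks. The 2 promoter motifs were scarce: DREF's TATCGATA was at 6 intergenic peaks (1.67%, 0.768 to 3.60), against 6.16% of all thresholded peaks and 9.77% of those at promoters. M1BP's word was at 1 (0.279%), against 3.15% of all and 5.09% at promoters. The E-box CAGCTG was at 11 intergenic summits (3.06%, 1.72 to 5.40), and at 8.22% of the flanks and 13.6% of the promoter peaks. A match describes letters and does not show that a factor was bound.

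Of the 25 motifs searched, the CTCF core and Su(Hw)'s word were those at 10 or more intergenic summits and at least 2 times as frequent there as in the flanks. Su(Hw)'s word was 1.59 times as frequent in windows of 200 bp to each side, and 1.64 times as frequent as at the intergenic peaks below the threshold. Words of developmental regulators were searched too. They were TGAGTCA for AP-1, TCAAGTG for the heart factor Tinman, GTGGGAA for the Notch effector Su(H) and CATTCC for Scalloped of the Hippo pathway. TAATTA stood for homeodomain proteins, CATATG for the mesoderm factor Twist and CACGTG for other E-boxes. CAGGTAG is the site of Zelda, the activator of the early zygotic genome, GAGAGAG that of GAGA factor, AACCGGTT that of Grainyhead and CCGGAAGT that of ETS factors. Runs of CA and of A were counted as well. Of these, the homeodomain word was at 39 summits (10.9%, flanks 14.5%, all thresholded peaks 14.7%) and the A tract at 43 (11.98%, flanks 10.3%, all 13.0%). The Zelda word was at 5 summits (1.39%, flanks 0.836%, all 0.780%) and the AP-1 word at 5 (1.39%, flanks 0.557%, all 1.84%). ETS words were at 4 (1.11%, flanks 0.418%, all 0.474%) and the Grainyhead word at 1 (0.279%, flanks 0%, all 0.279%). The Tinman, Su(H), Scalloped, Twist and CACGTG words were 0.926 to 1.85 times as frequent as in the flanks. The GAGA word was 0.538 times and the CA run 0.55 times as frequent.

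Counting all 2080 hexamers (each with its reverse complement) in the same windows gave the 10 with the largest difference between summit and flank shares. AGTGTA led them, at 24.8% of intergenic summits against 7.80% of flanks, 11.1% of promoter peaks and 18.3% of intron peaks. ACACTG (19.8% against 6.41%), CACTGA (20.6% against 9.05%) and AGTGCA (22.8% against 11.4%) share letters with the CAGTG word. ACACTG is also part of the M1BP site with its next base, and was at 22.2% of promoter peaks. The other 6 were made of A and T, but for GAAAAA. They were at 32.9% to 54.3% of the summits and at 20.2% to 39.4% of the flanks, with AAAAAT the most frequent and TTTAAA the least.

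The summits were poor in G and C. The median GC content of the same windows was 36.8% (quartiles 33.8 and 40.05), against 40.8% of all intergenic bases, 37.3% at promoter peaks and 35.8% in introns. Mean GC content was 36.3% over the 51 bp at the summit, rose to 43.9% at 300 bp to the left and 43.8% at 250 bp to the right, and was 40.8% and 40.1% at 600 bp. Few summits lay in annotated transposable elements: 2 of 359 (0.557%, 0.153 to 2.01), where such elements make up 10.8% of intergenic bases. Over all thresholded peaks 7 of 3590 lay in one (0.195%), so this was not particular to intergenic peaks. Below the threshold 1.46% of the intergenic peaks lay in one. Sequence that the reference genome marks as repeats (soft-masked) held more, 63 of the 359 summits (17.5%). It makes up 26.6% of intergenic bases and held 19.0% of all thresholded summits. How many reads can be placed in repeats was not measured.

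**Figure D2:**
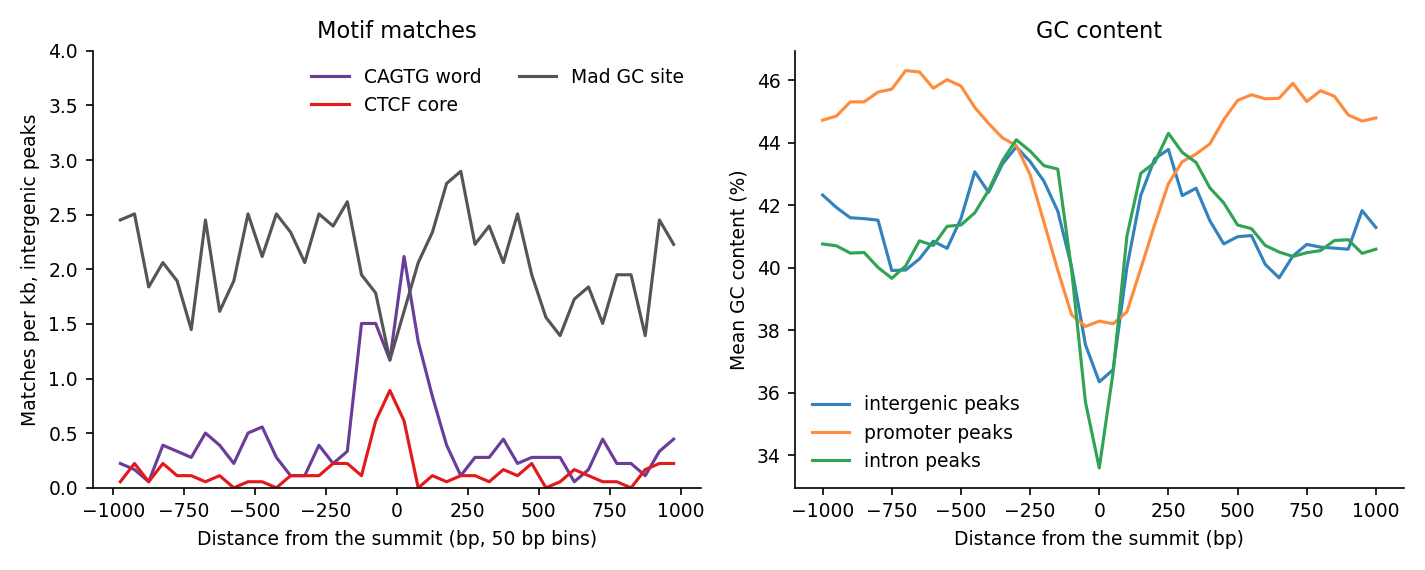
Left, matches per kb in 50 bp bins against distance from the summit over the 359 intergenic peaks, for the CAGTG word, the CTCF core and the GC-rich Mad site; right, mean GC content in 51 bp windows for intergenic, promoter and intron peaks. Matches to the word and the core are most frequent within 150 bp of the summit, where the Mad site is at its lowest, 1.17 matches per kb, and where GC content falls to 36.3%.

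Signal, the value the authors' peak caller wrote for a peak, was similar to that of peaks in genes. The median over the intergenic peaks was 100.5 (quartiles 83.0 and 142.9, range 70.6 to 857), against 108.9 at promoters and 104.5 in introns. Among the 1000 strongest thresholded peaks 88 were intergenic, which is 24.5% of the intergenic peaks, and 27.9% of all thresholded peaks lay in that group. Of the 100 strongest, 7 were intergenic. The depth of the libraries is unknown here, so no counting error can be set on a signal. A pooled signal was close to the sum of the values of both replicates (median ratio 1.00).

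The authors' threshold on reproducibility chose these peaks, so some likeness of the replicates is given by the list. Each of the 359 overlapped a peak in both replicates' lists, with a median signal of 46.7 in replicate 1 (range 12.6 to 425) and 59.1 in replicate 2 (21.6 to 434). Replicate 2 was higher at 283 peaks, with a median log2 ratio of 0.34 (SD 0.46 over peaks), near the 0.28 of all thresholded peaks. The values were within 2-fold of each other at 334 peaks, over 2-fold higher in replicate 2 at 24 and in replicate 1 at 1. Across the 359 peaks Spearman's rho was 0.65 and Pearson's r of log2 signals 0.76, which describes peaks of the same 2 libraries.

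Restricting each replicate to its 3590 strongest peaks left 258 of the 359 in both (71.9%, 67.0 to 76.3), against 74.7% of all thresholded peaks. A further 30 were only in replicate 1's, 65 only in replicate 2's and 6 in neither. Of the intergenic peaks of each replicate's own strongest 3590, 256 were also in the other's, or 74.6% of 343 and 69.6% of 368. The largest gap between replicates was at a peak 842 bp from the TSS of Tina-1, with 12.6 in replicate 1 and 58.6 in replicate 2.

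**Figure D3:**
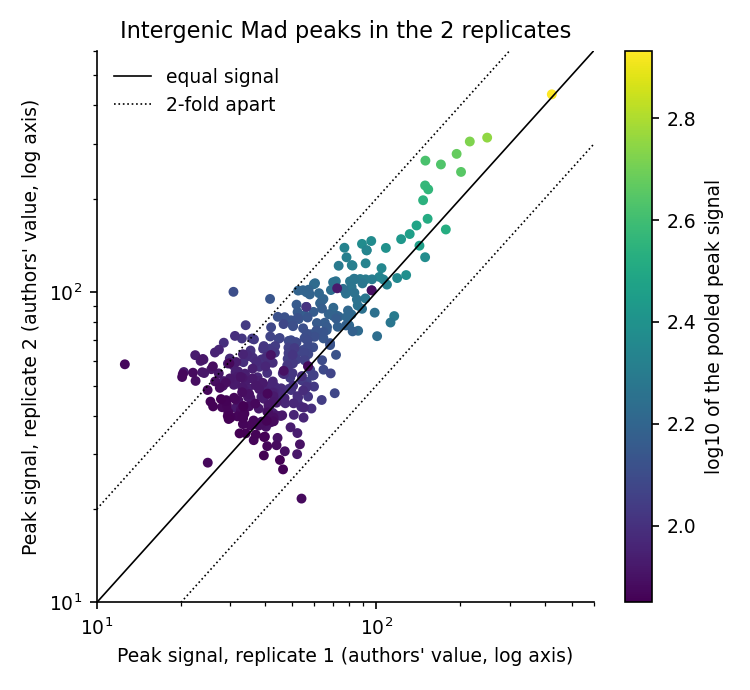
Signal of each of the 359 intergenic peaks in replicate 1 (horizontal) and replicate 2 (vertical), on log axes, coloured by the pooled signal; the solid line marks equal signal and the dotted lines a 2-fold difference. Most points lie above the line of equal signal, 283 of 359, and 25 lie outside the dotted lines.

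Several of the strongest intergenic peaks lay beside genes of known regulators. The strongest of all, rank 11 among the 3590, was at chr2R:13035177-13035523 in the 36783 bp gap between Su(z)2, a Polycomb group gene, and CG13323. Its signal was 857, with 425 in replicate 1 and 434 in replicate 2. The seventh (signal 417, 150 and 265 in the replicates) was at chr2R:12958061-12958384 beside Psc, the neighbouring Polycomb group gene, in the gap with CG13321. Both gaps held another, weaker intergenic peak, with signals of 82.1 and 140. Among these 4 peaks a CAGTG word was at that of signal 417.

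The second strongest, between lncRNA:CR45641 and lncRNA:CR45643, had 564 in the pool and 249 and 315 in the replicates, and the nearest protein-coding TSS was that of tara, 3156 bp away. The peak next in signal (527; 216 and 306) lay in the 1340 bp between blw, which encodes an ATP synthase subunit, and CycB, a mitotic cyclin gene. The fourth (476; 194 and 279) lay between lncRNA:CR44603 and lncRNA:CR45695, with the TSS of chinmo, a gene for a BTB zinc-finger factor of neuronal timing, 12492 bp away. Replicate 2 was higher at each of these 3 peaks.

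The other 5 of the 10 strongest had pooled signals of 348 to 447. Their neighbours were C15 and sp3, COX7AL2 and CG31668, RasGAP1 and CG10809, CG17896 and CG17778, and slp1 and slp2. C15 is a homeobox gene that acts downstream of Dpp in the dorsal embryo; the peak lay 549 bp from the TSS of sp3 and had 201.1 in replicate 1 and 244 in replicate 2. RasGAP1 is a negative regulator of Ras, and its peak lay 634 bp from its TSS. At the slp1 and slp2 peak, the signals were 147 and 198, 4324 bp upstream of slp2. Of the 10 strongest, those with signals of 857, 476, 429 and 417 had their summits in soft-masked sequence, where 17.5% of all 359 summits lay.

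Intergenic peaks stood near TSSs but not only there. The median distance from summit to nearest TSS was 2284 bp (quartiles 1206 and 4888, range 510 to 31857), and 226 of 359 (63.0%, 57.8 to 67.8) were upstream of that TSS. The 3970 intergenic peaks below the threshold had a median of 3296 bp and 61.1% upstream. Per Mb of intergenic DNA the density was 26.9 peaks at 500 to 1000 bp from a TSS, 17.8 at 1000 to 2000 bp, 12.7 at 2000 to 5000 bp, 7.53 at 5000 to 10000 bp and 2.63 beyond. Each replicate's own list gave the same order. The peaks below the threshold fell in the same order as well, from 198 to 41.9 per Mb. Median signal was 107, 104, 96.9, 101 and 105 in these bins and had no order with distance.

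The peak farthest from any TSS, at 31857 bp, lay in the 75047 bp gap between NijA and CG43245 and had a signal of 188, with 112 in replicate 1 and 79.8 in replicate 2. The nearest TSS belonged to a noncoding gene for 120 of the peaks, and 192 had at least 1 noncoding flanking gene.

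The gaps between gene spans were divided by the direction of the genes at their ends. Divergent gaps, whose genes both point away, held 107 peaks, or 29.8% (25.3 to 34.7), in 21.1% of the intergenic bases between genes, a density of 14.5 per Mb. Tandem gaps held 174 (9.46 per Mb) and convergent gaps, with no gene start at either end, held 78 (8.38 per Mb). The densities were 13.1, 9.13 and 8.38 in replicate 1 and 14.1, 9.78 and 9.02 in replicate 2, in the same order. Distance to a TSS moved with this: the median was 1755 bp in divergent gaps and 4010 bp in convergent ones, and its part in the difference was not tested.

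Density also differed between chromosome arms. Arm 2L had 96 intergenic peaks, 13.7% of its thresholded peaks (11.3 to 16.4) and 14.3 per intergenic Mb. Arm 3L had 98 (13.5%, 10.8 per Mb), 2R 56 (8.33%, 7.52 per Mb) and 3R 69 (8.09%, 8.995 per Mb). The X had 34, or 5.48% (3.94 to 7.55), and 6.40 per Mb, the lowest density. Replicates gave 5.84 and 7.15 per Mb on the X and 9.90 and 10.5 on arms 2L to 3R together. Below the threshold the X was also lower, 77.9 against 113 per Mb. The small chromosome 4 had 6 intergenic peaks of 19 in all, too few to place.

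**Figure D4:**
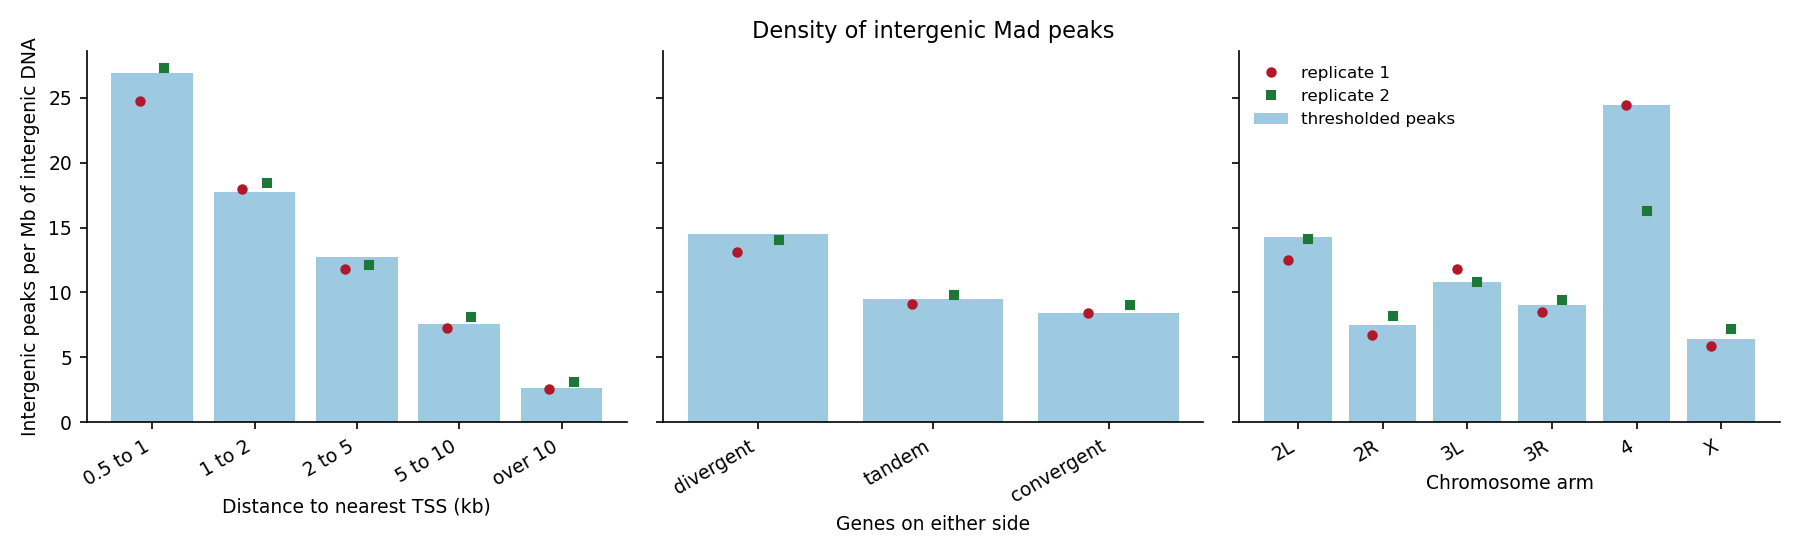
Intergenic peaks per Mb of intergenic DNA by distance to the nearest TSS (left), by the direction of the flanking genes (middle) and by chromosome arm (right). Columns are the 359 thresholded peaks, circles and squares the intergenic peaks among the 3590 strongest of replicate 1 and 2; density falls from 26.9 to 2.63 with distance and is 14.5 in divergent gaps and 6.40 on the X.

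The 359 peaks lay in 288 of the 6516 gaps that hold intergenic bases over 500 bp from a TSS (4.42%). Of these gaps 237 held 1 peak, 38 held 2, 9 held 3, 3 held 4 and 1 held 7. That gap, 19.1 kb at chr3L:11406095-11425157 between lncRNA:CR44363 and CG7560, had peak signals of 80.2 to 226 within 7175 bp. The gap near chinmo held 4, with signals of 103, 151, 243 and 476. The gap of Hacd1 and Rh5, a rhodopsin gene, held 4 within 4424 bp, with signals of 79.3 to 128.

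Some neighbouring peaks are not independent. Within 500 bp of another intergenic summit lay 14 of the 359 peaks, in 7 pairs, and the members of a pair can overlap the same peak of a replicate. The 359 peaks overlapped 352 different peaks of replicate 1 and 353 of replicate 2. The median distance to the next thresholded summit of any class was 7767 bp, against 5810 bp over all thresholded peaks. For 171 of the 359 the next summit was itself intergenic, for 130 at a promoter and for 51 in an intron.

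The peaks had 387 protein-coding genes at the ends of their gaps, or 2.78% of 13945. Of 29 genes listed here as BMP components 3 flanked a peak. They were dally, a glypican that modulates the spread of Dpp, Dad, the inhibitory Smad that Dpp itself induces, and myo, a ligand of the TGF-beta family. The dally peak had 34.1 in replicate 1 and 51.8 in replicate 2, 3452 bp upstream of its TSS. The Dad peak had 20.3 and 54.4, over 2-fold apart, 1099 bp upstream. The myo peak, on chromosome 4, had 28.9 and 44.6, 809 bp upstream. All 3 were among the weaker intergenic peaks (pooled signals 71.5 to 84.3), and with replicate 1's own list 1 of the 29 genes flanked a peak, with replicate 2's 3.

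Of 32 Dpp target genes 9 flanked a peak (28.1%, 15.6 to 45.4). They were the T-box genes Doc1, Doc2 and mid, the transcription factor genes kni, tup, bs, peb and salm, and Dad. With the replicates' own lists they numbered 8 and 9. Doc2 had the strongest, 143 in the pool with 66.6 and 77.2 in the replicates, 6683 bp upstream of its TSS, and 3 peaks in all. The kni peak had 58.4 and 73.2 at 16224 bp upstream, and the tup peak 47.0 and 83.1 at 9033 bp upstream. The others had pooled signals of 74.3 to 94.1. For 3 of the 9 genes the nearest TSS of a flanking peak was their own. Taking the strongest peak of each of these 9 genes, 6 held the CAGTG word and 3 the GC-rich Mad site, where 96 and 85 of all 359 intergenic peaks did. The word was itself chosen at these 359 summits. Such peaks of other lists held it as well, 3 of 5 for gap and pair-rule genes and 2 of 3 each for Wnt and EGFR pathway genes. Counts for the remaining lists are not given here. Among the 1000 strongest thresholded peaks no intergenic peak was flanked by a gene of the Dpp target or BMP component lists. The strongest Doc2 peak ranked 1009. C15, beside the intergenic peak of signal 447 (rank 77), is not in these lists.

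The amount of intergenic DNA beside the genes also differed. The 32 Dpp targets had 43 gaps beside them, with 9.94 kb of intergenic DNA per gene. All 13945 protein-coding genes had 6080 gaps, with 2.28 kb per gene. Each gap was counted once, also with genes of the set at both ends, so these values per gene cannot be compared directly. By length, the density beside the Dpp targets was 34.6 peaks per Mb (11 peaks), against 9.87 beside any protein-coding gene. The BMP component list had 53.8 per Mb, from 3 peaks, with that of the TGF-beta family ligand myo among them. The lists were chosen with results of these data known, so these densities are descriptions.

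Gap and pair-rule genes of segmentation flanked a peak in 6 of 23 cases, with 17.9 peaks per Mb. The strongest peaks among them were beside slp1, slp2 and kni. Of 16 EGFR pathway genes 3 did, each with 2 peaks, a density of 91.1 per Mb. They were sty, which encodes the inhibitor Sprouty (strongest peak 206, with 82.2 and 122 in the replicates), aop, an ETS-family repressor (188, with 83.3 and 110), and vn, a ligand (72.9, with 33.4 and 39.2). Of 24 Wnt pathway genes 4 did, at 39.2 per Mb, among them Wnt4 and wg, ligand genes that share 1 gap with 2 peaks, and the receptor gene fz. Of 14 Hedgehog pathway genes 2 did, dally and the receptor gene ptc (161, with 62.4 and 99.3).

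The remaining lists lay above and below the 9.87 per Mb beside any protein-coding gene. Of 85 ribosomal protein genes 4 flanked a peak (9.13 per Mb), among them RpS23, RpL17 and RpS15Aa, and of 119 odorant and gustatory receptor genes 3 (5.13 per Mb: Gr89a, Gr93a and Or85b). Tracheal genes had 2 of 17 (kni and salm, 6.91 per Mb). With 1 gene and 1 peak each, the density was 18.3 for Notch pathway genes (fng), 13.996 for Hox genes with cofactors (hth), 7.78 for mesoderm and muscle genes (how) and 6.95 for ecdysone and nuclear receptor genes (kni). Of 19 proneural and neural genes none flanked a peak in the thresholded list (Wilson interval up to 16.8%), and 1 did in replicate 2's own list.

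The weakest intergenic peaks, near C1GalTA and upd2, had signals of 70.68 and 70.63, and the strongest intergenic peaks left out by the authors' threshold had 70.31 and 69.62. The intergenic peaks closest to a TSS lay at 510 bp, beside Asator and CG5973, and the first ones outside the distance lay at 491 and 489 bp from the TSSs of Npc2b and nrv1. A further 1205 thresholded summits lay in no gene span but within 500 bp of a TSS.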

How the data were processed

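The authors deposited peak lists for 1 group of 2 replicates, and only the dm6 lists were used: 1 of 30000 peaks per replicate, 1 of 30000 pooled peaks and 1 of 3590 peaks thresholded on reproducibility. The 4 lists on another build were not used here. Signal, in the deposited lists, is a number the authors' peak caller gave each peak by an unstated formula, and here it only ranks and describes peaks. The lists also hold the authors' −log10 q values, which were not used to rank. The summit offset is the deposited one. The deposited texts and labels used here name no aligner, no peak caller and no read depth.

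Genes and TSSs came from Ensembl release 115 without transposable elements, and sequence from the RefSeq release 6 genome, both on build dm6 and on 6 arms. Positions count from 1. A replicate's value is that of its strongest peak overlapping by at least 1 bp. On both strands, 25 motifs were searched 100 bp to each side of a summit and of points 600 bp away, and 3 words were added after the data were seen. A gene flanks a peak when it ends the gap that holds the summit. The 14 lists hold 440 entries, with some genes in several lists, and 6 symbols were updated. Intervals are Wilson's at 95% and cover counting error over peaks only. With 1 group no test between conditions was possible. The members, lists and motifs were chosen with earlier results of these data known. Genes named are the neighbours of the 10 strongest peaks, the flanking genes of the BMP and Dpp target lists, up to 3 per other list, gaps with 3 or more peaks and the peaks at the thresholds. The run of T beside the CAGTG word, the weaker peaks near Psc and Su(z)2, the peaks whose sequence is shown and Tina-1 were chosen after their values were seen. One further sequence is not reported here. Alternatives were other TSS distances, gene sets, windows, flanks, overlaps, the 1000 strongest peaks, the peaks below the threshold and each replicate's own 3590 strongest. The functions recovered all planted classes and words in simulated data. Python 3.11.15, numpy 2.4.6, pandas 2.3.3 and scipy 1.17.1 were used.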

Additional observations from a re-analysis of the deposited data

How the results depend on the processing

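The intergenic share, 10%, became 13.3% and 7.88% with TSS distances of 250 and 1000 bp, 12.6% with protein-coding genes only and 8.80% among the 1000 strongest peaks. The median signal ratio of intergenic to all peaks, 0.945, was 0.980, 0.935, 0.9502 and 0.948 under these settings, 0.953 with transposable elements counted as genes and 0.968 to 0.971 with either replicate left out. The median TSS distance, 2284 bp, was 1539, 3362, 3764 and 1907 bp, 2144 bp with transposable elements as genes, and 2276 to 2347 bp with a replicate left out. Median GC content was 36.3% at 250 bp, and 35.6% and 39.4% in windows of 50 and 200 bp to each side. The share of summits in transposable elements, 0.557%, was 0% with these elements counted as genes and 1.14% among the 1000 strongest. Replicate overlap, 71.9%, was 64.3% when 0.5 of each peak had to overlap. Motifs at 10 or more peaks and at least 2 times the flanks numbered 2 of 25, 3 with flanks 1000 bp away, and 1 with 50 bp windows, against peaks below the threshold or among the 1000 strongest. At the intergenic peaks among the 1000 strongest that motif was the Brinker site, at 3.25 times the flanks with overlaps of the core kept. The CTCF core was at 4.67 times the flanks there, but at fewer than 10 peaks. Flanking genes, 387, were 102 for the 1000 strongest and 209 by nearest TSS only. Flanking genes of the BMP component and Dpp target lists, 3 and 9, were 0 and 0 for the 1000 strongest. Ratios to flanks that crossed 1 were the GC-rich Mad site (1.06 in windows of 200 bp to each side), GATA (0.769 among the 1000 strongest) and DREF (0 there); the cause was not tested. The CTCF core stayed 2.79 to 8 times and the CAGTG word at least 2.13 times as frequent in each alternative run, the lowest value for both against peaks below the threshold. With peaks within 500 bp counted once, an alternative chosen after the data were seen, the core's ratio was 6.22. No paired analysis was possible because there is 1 group. Depth is unknown, so weak peaks cannot be told from absent ones.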
